A study of Mus musculus with 8 samples.

Results

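Constant distal H3K27ac regions are stretches of chromatin away from the ends of protein-coding genes where acetylated lysine 27 of histone H3 was called in every library of small intestinal crypts. They were chosen from the deposited peaks: overlapping peaks of the 8 H3K27ac lists were merged on chromosomes 1 to 19, X and Y, and a merged region was kept if it was under 5 kb wide, held a peak of all 8 lists, overlapped at least 1 H3K9ac peak of any list, and lay 10 to 100 kb from the nearest end of a protein-coding RefSeq gene (GRCm38). The rule kept 4693 of 112301 merged regions, which is 4.18%. Peaks in all 8 lists were found in 16401 regions, of which 15415 were under 5 kb and 14707 of these had an H3K9ac peak. The last step removed 9419 regions under 10 kb from a gene end and 595 over 100 kb from one. A further 1858 regions met the rest of the rule with peaks in 7 of the 8 lists, and 376 met it without any H3K9ac peak. Because a peak in every list was required, a region that lost H3K27ac in any library is not among the 4693.

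Histone acetylation marks active regulatory DNA. H3K27ac is deposited mainly by the acetyltransferases CBP and p300 at promoters and at enhancers, which are elements that raise transcription of a gene from a distance, while H3K9ac is most abundant at promoters. In the intestinal epithelium, distal elements are bound by factors such as HNF4, CDX2 and GATA4, and crypts hold the stem and progenitor cells from which the epithelium is renewed.

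The crypts came from 9-week-old male C57BL/6J mice, and H3K27ac and H3K9ac were mapped by CUT&Tag, which uses an antibody to guide a DNA-cutting transposase to the marked chromatin. Each mark had 4 groups: Fed (-Tetra) mice, Fast (-Tetra) mice fasted for 24 h, Fed (+Tetra) mice given tetracycline for 21 days, and Fast (+Tetra) mice given the same treatment and fasted for 24 h. Each of the 8 samples had 2 peak lists, here called list 1 and list 2 after the names of the lists. The labels do not say whether these are different mice, so p-values measure the spread between lists, which may be technical.

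The H3K27ac lists held 32392 to 68545 peaks and the H3K9ac lists 17249 to 99050. They are described as downsampled and give no read totals, so the depth is unknown. All 10 epithelial marker genes had an H3K27ac peak at a gene end in every list. Of 10 immune cell markers, 2 to 6 did in the Fed lists and 5 to 7 in the Fast lists. Of 11 markers of stroma, vessels and other tissues, 0 to 2 did in a list and 8 did in none. The constant distal regions lay nearest to an epithelial marker 13 times, to an immune marker once (Itgam), and to the stromal and vessel markers Acta2 and Cdh5. In these mixed preparations, fewer cells of a type and less of the mark per cell cannot be told apart.

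Whether the regions act as enhancers was not tested, and they were only checked for RefSeq transcript starts. A RefSeq transcript start lay inside 382 of the 4693 regions (8.14%): 180 held the start of a protein-coding gene's transcript, which was an internal start at least 10 kb from both ends of the gene, and 202 held only starts of noncoding genes. The remaining 4311 held no RefSeq start. The regions are therefore called by their rule. No genome sequence was used, so the sequences shown are the 250 bases upstream of RefSeq starts that fall inside a region, from RefSeq (GRCm38.p6), written 5′ to 3′ on the strand of the transcript. They are shown because CG content at such starts varied with the H3K9ac of the region. CG dinucleotides, the sites of DNA methylation that are dense in many promoters, are in capitals. Bcar1 encodes an adaptor protein of cell adhesion signalling and Mark2 a polarity kinase. 1700031P21Rik, 9130230L23Rik, Gm30143 and Gm28114 are long noncoding RNA genes. The first 4 sequences lie in regions with H3K9ac peaks in all 8 lists and the others in regions with an H3K9ac peak in 1 list.
Bcar1, minus strand, chr8:111732137-111732386: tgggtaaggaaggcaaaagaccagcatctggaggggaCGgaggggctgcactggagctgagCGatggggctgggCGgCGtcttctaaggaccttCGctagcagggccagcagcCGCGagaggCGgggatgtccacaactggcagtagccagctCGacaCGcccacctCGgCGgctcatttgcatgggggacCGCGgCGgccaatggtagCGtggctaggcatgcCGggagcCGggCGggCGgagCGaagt
Mark2, minus strand, chr19:7295448-7295697: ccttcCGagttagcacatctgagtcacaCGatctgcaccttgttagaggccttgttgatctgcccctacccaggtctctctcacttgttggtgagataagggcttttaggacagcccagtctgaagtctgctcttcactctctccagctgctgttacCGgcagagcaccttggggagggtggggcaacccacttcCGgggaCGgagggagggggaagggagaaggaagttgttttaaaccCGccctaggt
1700031P21Rik, minus strand, chr12:52602323-52602572: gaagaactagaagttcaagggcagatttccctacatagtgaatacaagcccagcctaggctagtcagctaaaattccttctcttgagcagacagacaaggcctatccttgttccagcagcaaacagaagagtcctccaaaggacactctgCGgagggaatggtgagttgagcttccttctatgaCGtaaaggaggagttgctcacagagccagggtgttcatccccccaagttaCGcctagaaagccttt
9130230L23Rik, minus strand, chr5:66004286-66004535: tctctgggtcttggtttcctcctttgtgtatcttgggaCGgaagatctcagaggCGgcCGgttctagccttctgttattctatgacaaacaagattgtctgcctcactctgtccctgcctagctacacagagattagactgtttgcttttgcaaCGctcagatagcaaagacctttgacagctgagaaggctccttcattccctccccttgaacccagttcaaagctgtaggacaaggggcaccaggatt
Gm30143, plus strand, chr2:174018981-174019230: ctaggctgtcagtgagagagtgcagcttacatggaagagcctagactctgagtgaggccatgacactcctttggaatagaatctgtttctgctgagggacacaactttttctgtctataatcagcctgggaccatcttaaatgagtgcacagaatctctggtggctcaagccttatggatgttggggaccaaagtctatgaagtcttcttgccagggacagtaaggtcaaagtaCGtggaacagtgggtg
Gm28114, minus strand, chr15:75392881-75393130: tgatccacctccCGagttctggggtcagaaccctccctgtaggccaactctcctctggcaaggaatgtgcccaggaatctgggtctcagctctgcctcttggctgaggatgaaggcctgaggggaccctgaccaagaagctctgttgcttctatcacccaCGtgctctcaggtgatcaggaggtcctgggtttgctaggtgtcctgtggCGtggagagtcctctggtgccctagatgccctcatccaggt

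The Bcar1 window held 21 CG dinucleotides and that of Mark2 6, against 3 for 1700031P21Rik, 4 for 9130230L23Rik, 1 for Gm30143 and 3 for Gm28114. The noncoding windows of both classes thus held few. Across the 464 start windows inside the regions, the median was 6 CG and the GC content 53%, close to all 32817 windows of the RefSeq table (6 CG, 52.4%) and below the 6601 windows in gene-end regions (18 CG, 61.6%). Gene-end regions here are the 6108 regions that met the same rule except that they lay within 1 kb of a gene end. In regions with H3K9ac in 1 list the median was 4 CG (30 windows), with 2 to 4 lists 4 CG (112 windows), with 5 to 7 lists 6 CG (194 windows) and with all 8 lists 15 CG (128 windows). The share of windows from protein-coding genes went from 3.33% to 77.3% between the first and the last of these classes. These are descriptions, and windows of neighbouring starts can overlap.

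Short motifs were searched on both strands of the same windows, and a match is a description, not a bound site. The HNF4 motif CAAAGTCCA was in 10 windows of the regions (2.16%), against 0.384% of all windows and 0.379% of gene-end windows. The AP-1 motif TGANTCA was in 9.70% against 6.75% of all windows and 3.74% at gene ends. The GATA motif AGATAA was in 10.8%, against 9.99% and 5.26%. The CDX motif TTTATNG was in 6.68%, against 9.81% and 5.54%. The palindromic HNF1 motif was in none of the 464. Matches of different motifs were counted separately even where they overlapped. The Mark2 window above holds both an AP-1 and a GATA match. One microRNA of the RefSeq table lay inside a region: mmu-miR-1960, whose mature form is printed with its seed, bases 2 to 8, in capitals.
mmu-miR-1960, plus strand, chr5:30170751-30170772: cCAGUGCUguuagaagagggcu

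The region that holds Mir1960 (chr5:30169219-30171651) was 12.9 kb from the nearest end of Hadhb, which encodes a subunit of the mitochondrial trifunctional protein of fatty acid oxidation. In the lists of Fed (-Tetra) mice, H3K27ac covered 766 and 1134 bp of it, in Fast (-Tetra) 2276 and 1792 bp, in Fed (+Tetra) 913 and 895 bp, and in Fast (+Tetra) 1755 and 1251 bp. All Fast lists lay above all Fed lists, but the fasting difference (0.91 ± 0.21 SE on the log2 scale) was not called (limma, adjusted p = 0.44 over all 15415 regions).

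Merged regions were 565 to 4982 bp wide (median 1944 bp), and within a list H3K27ac covered a median of 1312 bp of a region. For a single region, the widest list covered 1.96 times as much as the narrowest at the median, and up to 9.58 times. The distance to a gene end had a median of 25.5 kb. By distance, 1753 regions lay at 10 to 20 kb, 1976 at 20 to 50 kb and 964 at 50 to 100 kb, and these classes had similar median score ranks (49.9, 49.6 and 47.3). The score is the authors' value for a peak and has no stated unit. It was used only as a rank within a list, from 0 to 100, among the 15415 regions that every list shares. Most regions, 2826 (60.2%), lay within a protein-coding gene, and 1867 lay between genes. X carried 53 of them and Y none.

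At the edges of the rule, the widest regions kept lay near Snx5 (4982 bp), Inpp5b (4969 bp) and Dnajb12 (4968 bp), and the narrowest left out for width lay near Cmip (5000 bp), Bcar3 (5009 bp) and Fut8 (5013 bp). Those nearest to the 10 kb limit were at Gm21451, Osbpl6 and Irak2 (10.004 to 10.007 kb, score ranks 69.2, 91.7 and 72.9), against Mtmr6, Npas2 and Sectm1a at 9.992 to 9.999 kb (31.4, 78.4 and 27.5). The farthest kept were at Palld, Prkag2 and Kcnq1 (99.8 to 99.9 kb), and the first left out were at Ptp4a1, Mllt3 and Tbl1xr1 (100.052 to 100.559 kb).

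H3K27ac in the 8 lists was compared first between Fed and Fast mice. The median width of H3K27ac at the regions was 1057 and 1380 bp in lists 1 and 2 of Fed (-Tetra), 1273 and 1576 bp in Fast (-Tetra), 1067 and 1488 bp in Fed (+Tetra), and 1241 and 1454 bp in Fast (+Tetra). List 2 was wider than list 1 in all 4 samples, a shift that is part of the spread between lists, and the Fed and Fast lists overlapped. The mean log2 width was 0.13 higher in Fast lists than in Fed lists, or 1.09-fold (0.17 without and 0.087 with tetracycline), against an SD between the lists of a group of 0.24. Of the 4 Fed and Fast pairs of the same tetracycline state and list number, 3 were wider in Fast (exact permutation over lists, two-sided p = 0.44, adjusted p = 0.79 over 16 tests). Without list 1 of every sample the difference was 0.067, and without list 2 it was 0.19. With 2 lists per group this exact test cannot go below p = 0.056.

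Score ranks were compared in the same way. The mean score rank of the regions was 46.5 and 49.7 in Fed (-Tetra), 49.5 and 52.9 in Fast (-Tetra), 48.4 and 49.5 in Fed (+Tetra), and 50.2 and 53.2 in Fast (+Tetra). Fed and Fast lists overlapped at one point, where Fast (-Tetra) list 1 lay just below list 2 of both Fed groups. Fast exceeded Fed in 4 of 4 pairs, by 2.92 points on average (3.10 without and 2.75 with tetracycline, SD between lists 2.01), which did not pass the test (exact permutation p = 0.11, adjusted p = 0.30). List 2 ranked above list 1 in all 4 samples, and that test did not use this pairing. Sign flips within pairs of the same list number gave an exact p of 0.125, the smallest that 4 pairs can give. Over the alternatives that kept both list numbers, the rank difference ran from 2.49 to 3.475 points (unadjusted exact permutation p from 0.056 to 0.17). Set against gene-end regions of the same list, the Fast difference was 6.45 points (4 of 4 pairs, exact permutation p = 0.17, adjusted p = 0.33). For width, the difference relative to gene-end regions was 0.0016 on the log2 scale (exact permutation p = 1).

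Tetracycline gave smaller differences. Mean log2 width differed by -0.0073 between +Tetra and -Tetra lists (exact permutation p = 0.83), and mean score rank by 0.68 points (exact permutation p = 0.61), both with an adjusted p of 0.95. The fasting difference in width was 0.086 smaller under tetracycline on the log2 scale (exact permutation p = 0.83) and that in rank 0.36 points smaller (exact permutation p = 1). All these values lay within the spread between lists.

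**Figure D1:**
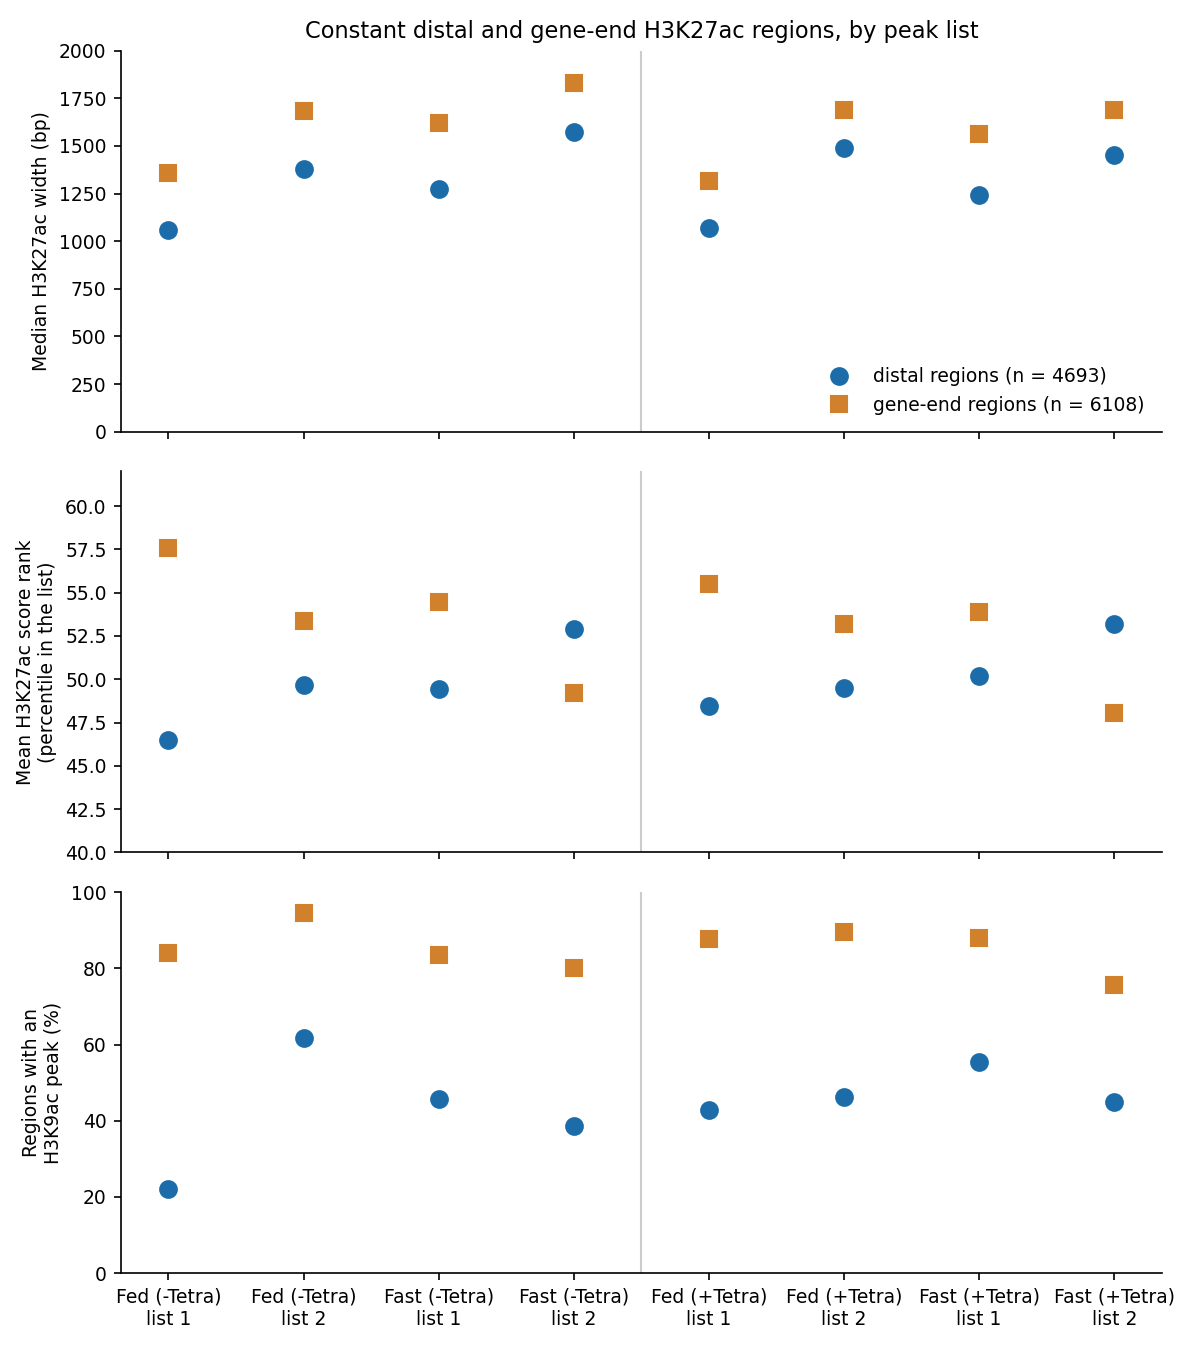
Median H3K27ac width in bp (top), mean H3K27ac score rank within the list as a percentile (middle, axis from 40 to 62) and percent of regions with an H3K9ac peak (bottom) in each of the 8 lists. Circles are the 4693 distal regions and squares the 6108 gene-end regions, with no error bar since each point is 1 list; the distal regions are narrower and less often carry H3K9ac in all 8 lists, while the score ranks of the 2 sets cross in list 2 of both Fast groups.

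The distal regions differed from gene-end regions in each list. Gene-end regions had median widths of 1318 to 1830.5 bp, and the distal regions were narrower in 8 of 8 lists, with a mean difference of -276 bp (SD between lists 48.7, sign-flip permutation over lists, exact p = 0.0078, adjusted p = 0.031). This p is the smallest that 8 lists can give. Median score ranks of the distal regions were lower in 6 of 8 lists, with a mean difference of -4.64 points (SD 7.55, exact p = 0.15, adjusted p = 0.33). They were higher only in list 2 of Fast (-Tetra) and list 2 of Fast (+Tetra), and with list 2 alone in every sample the difference was 0.45 points in the other direction. It was also turned, to 4.10 points, with lists cut to an equal number of top peaks, was -0.034 with peaks of at least 500 bp, and was -0.88 with H3K9ac asked for in 2 lists.

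H3K9ac was found at 22.0% and 61.8% of the distal regions in the lists of Fed (-Tetra), 45.7% and 38.8% in Fast (-Tetra), 42.8% and 46.2% in Fed (+Tetra), and 55.4% and 44.9% in Fast (+Tetra). Both the lowest and the highest share thus belonged to the Fed (-Tetra) sample. H3K9ac list lengths moved in part with these shares: 17249 and 51552 peaks in Fed (-Tetra), 99050 and 35889 in Fast (-Tetra), 24643 and 54158 in Fed (+Tetra), and 97764 and 53313 in Fast (+Tetra). In gene-end regions the share was 75.6% to 94.4%, and the distal share was lower in 8 of 8 lists, with a mean difference of -40.7 points (SD 10.5, sign-flip permutation, exact p = 0.0078, adjusted p = 0.031). The rule asked for 1 H3K9ac peak in either set.

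Between Fast and Fed, the share of distal regions with H3K9ac differed by 2.97 points (0.32 without and 5.61 with tetracycline, SD between lists 14.8, exact permutation p = 0.83, adjusted p = 0.95). Its direction rested on the lists used: without list 1 of every sample the Fast share was lower, at -12.2 points, and without list 2 it was 18.1 points higher. With lists cut to an equal number of top peaks the difference was -14.1 points, and with peaks of at least 500 bp it was -3.48. Between +Tetra and -Tetra lists it differed by 5.26 points (exact permutation p = 0.67, adjusted p = 0.95), with -4.75 points without list 1 and 15.3 without list 2, and 1.27 with lists cut to an equal number of top peaks.

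Regions were then described by how many H3K9ac lists supported them. H3K9ac was in 1 list at 751 regions, 2 at 892, 3 at 897, 4 at 718, 5 at 598, 6 at 392, 7 at 225 and all 8 at 220. The median H3K27ac score rank went from 30.4 at regions with H3K9ac in 1 list to 38.3, 47.2, 56.3, 62.8, 68.6, 73.3 and 71.6 with 2 to 8 lists. Median region width went from 1562 bp with 1 list to 2660 bp with 8, and its part in the number of lists was not tested. The share within a protein-coding gene went from 52.2% to 76.8%, and the share that held a RefSeq start from 3.06% to 45.5%.

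**Figure D2:**
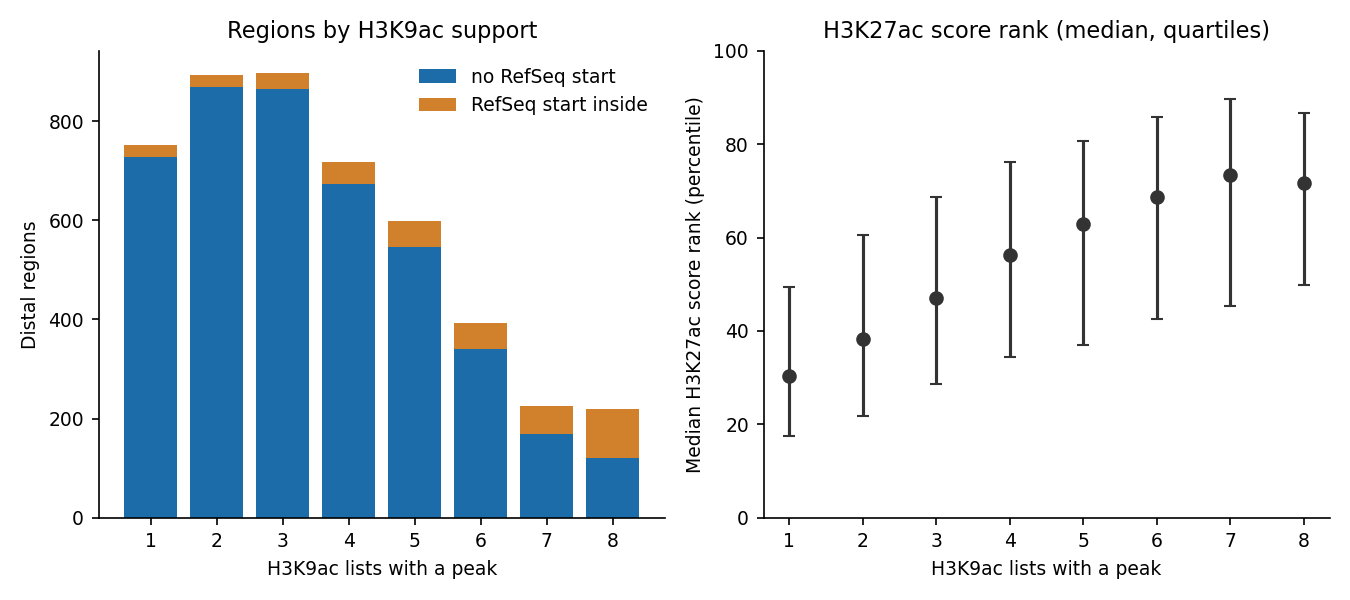
Left, number of distal regions by the number of H3K9ac lists with a peak (0 is excluded by the rule), with the part that holds a RefSeq start stacked on top. Right, median over regions of the H3K27ac score rank (percentile), with bars from the lower to the upper quartile; the median lies at 30.4 with 1 list and at 71.6 with 8, and the quartiles of neighbouring classes overlap.

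Transcript starts inside a distal region went with more H3K9ac. The 180 regions with a protein-coding start had H3K9ac in 6.68 of 8 lists on average and in all 8 lists at 84 regions, the 202 with only noncoding starts in 4.43 lists (all 8 at 16 regions), and the 4311 without a start in 3.40 (all 8 at 120 regions). In single lists, 51.8% to 84.0% of regions with a start carried H3K9ac, against 19.3% to 59.8% of the others. The start-holding regions were higher in 8 of 8 lists, by 26.1 points (SD 3.06, sign-flip permutation, exact p = 0.0078, adjusted p = 0.031). They were also wider in H3K27ac by 353 bp (8 of 8 lists, SD 79.2, exact p = 0.0078, adjusted p = 0.031). A wider region has more room to hold a start, so the grouping itself favours this width difference, and its part was not tested. Their median score rank was 7.44 points higher (7 of 8 lists, SD 3.72, exact p = 0.016, adjusted p = 0.05). That depended on how peaks were filtered: with lists cut to an equal number of top peaks it was 0.71 points.

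Among regions 2 to 3 kb wide, a comparison added after the data were seen, H3K9ac was at 50% to 85.9% of the 128 distal regions with a start, at 21.4% to 63.0% of the 1257 without one, and at 76.7% to 95.6% of the 2233 gene-end regions. The medians over the 8 lists were 69.1%, 45.9% and 87.2%.

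**Figure D3:**
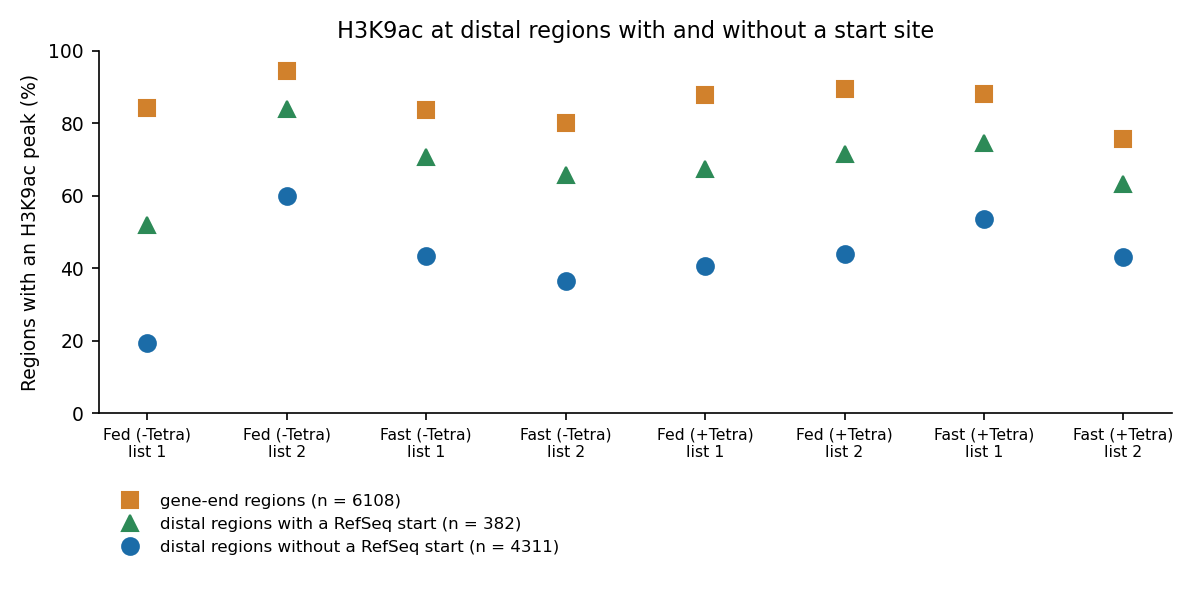
Percent of regions with an H3K9ac peak in each of the 8 H3K9ac lists (one point per list and set, no error bar). Squares are gene-end regions, triangles distal regions with a RefSeq start and circles distal regions without one; in every list the triangles lie between the squares and the circles.

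Feeding state and H3K9ac were set against each other at single regions. H3K9ac was in all 4 Fast lists and no Fed list at 12 distal regions (0.256%), against 0.17% of all 14707 constant regions with H3K9ac, and in all 4 Fed and no Fast list at 6 (0.128%), against 0.129%. Both shares are low and near the background. The 12 lay nearest to Gm4791, Xpnpep1, Bcl11a, Reep3, Scamp1, Ly86, Prag1, Tsc22d3, Map2k6, Rreb1, Mrpl33 and Tnrc6a, and the 6 to Epha2, Bco1, Usp12, Sulf2, Myh14 and Mgam. These names were taken after the values were seen. Tsc22d3 encodes GILZ, a glucocorticoid-induced regulator, Bco1 the enzyme that cleaves beta-carotene, and Mgam the brush border enzyme maltase-glucoamylase.

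Single regions were tested for width with limma over all 15415 regions (log2 width, 4 group means, Benjamini-Hochberg). None of the 4693 was called at an adjusted p under 0.05 for fasting, and 0% of all regions were. At an unadjusted p under 0.05, 385 distal regions (8.20%) were wider in Fast lists and 51 (1.09%) narrower, against 6.67% and 0.83% of all regions. With widths centred on each list's median, the split within the distal regions was 276 wider and 302 narrower. The shares of all regions after centring are not given here, so this split has no background beside it. All 4 Fast lists were wider than all 4 Fed lists at 268 distal regions (5.71%, against 5.18% of all regions) and narrower at 24 (0.511%, against 0.525%). The median fasting difference over the distal regions was 0.12 on the log2 scale (0.11 over all regions) beside a median SE of 0.22. Of the distal regions, 41 (0.874%) differed by more than 1, and the share of all regions is not given here.

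For score rank, 0 regions were called and 0% of all regions. At an unadjusted p under 0.05, limma gave 580 distal regions (12.4%) higher in Fast lists and 243 (5.18%) lower, against 8.32% and 6.28% of all regions. The groups did not overlap at 355 regions that ranked higher in Fast (7.56%, against 5.12%) and at 128 that ranked lower (2.73%, against 3.31%). The smallest adjusted p was 0.17 for width and 0.054 for rank. Tetracycline gave 0 calls for either measure (0% of all regions). Unadjusted, 43 regions were wider (0.916%, against 0.681%) and 78 narrower (1.66%, against 1.6%) with tetracycline, and 170 ranked higher (3.62%, against 3.11%) and 154 lower (3.28%, against 3.1%). The groups with and without tetracycline did not overlap at 23 wider regions (0.490%, against 0.461% of all regions) and 36 narrower ones (0.767%, against 0.824%), nor at 66 that ranked higher (1.41%, against 1.34%) and 74 that ranked lower (1.58%, against 1.41%). These shares are near the background. The fasting by tetracycline interaction gave 0 calls for width and for rank (0% of all regions), with 37 higher and 78 lower for width at an unadjusted p under 0.05 (0.788% and 1.66%, against 0.668% and 1.39%) and 88 higher and 101 lower for rank (1.88% and 2.15%, against 1.95% and 1.86%).

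The 3 regions with the smallest fasting p for larger width lay within Lrrc20, Ctbp2 and Gmds. At Lrrc20, a leucine-rich repeat gene (chr10:61533917-61537503), H3K27ac covered 632 and 539 bp in Fed (-Tetra), 3550 and 2644 bp in Fast (-Tetra), 774 and 1116 bp in Fed (+Tetra), and 2125 and 3289 bp in Fast (+Tetra). Every Fast list was wider than every Fed list. The difference was 1.95 ± 0.22 (SE) on the log2 scale with an adjusted p of 0.17 (limma), and its score rank was 0.1 to 7.2 in the Fed lists and 27.6 to 68.5 in the Fast lists. With widths centred on each list's median this was the only distal region called (limma adjusted p = 0.046). The share of all regions called after centring is not given here.

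At Ctbp2, which encodes a transcriptional corepressor (chr7:133028597-133030922), widths were 798 and 781 bp in Fed (-Tetra), 1582 and 2326 bp in Fast (-Tetra), 693 and 702 bp in Fed (+Tetra), and 2046 and 1900 bp in Fast (+Tetra). The groups did not overlap in width (1.39 ± 0.18 SE, limma adjusted p = 0.26), but score ranks did: they ran from 1.9 to 27.6 in Fed and from 0.4 to 72.3 in Fast. Gmds encodes an enzyme of GDP-fucose synthesis. At its region (chr13:32316616-32319360) widths were 1093 and 1068 bp in Fed (-Tetra), 2423 and 2639 bp in Fast (-Tetra), 693 and 914 bp in Fed (+Tetra), and 1857 and 2331 bp in Fast (+Tetra). It differed by 1.31 ± 0.18 (SE) with an adjusted p of 0.27 (limma).

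The 3 with the smallest p for narrower width in Fast lay within Itpk1, Snx9 and Armc2. Itpk1 encodes an inositol phosphate kinase. At its region (chr12:102604321-102605592) widths were 933 and 1008 bp in Fed (-Tetra), 498 and 628 bp in Fast (-Tetra), 957 and 1272 bp in Fed (+Tetra), and 396 and 518 bp in Fast (+Tetra). The Fed lists were all above the Fast lists, with a difference of -1.04 ± 0.19 (SE) on the log2 scale (limma adjusted p = 0.29). At Snx9, a sorting nexin of endocytosis (chr17:5855186-5856392), Fed lists had 1069 to 1203 bp and Fast lists 531 to 781 bp (-0.84 ± 0.19 SE, limma adjusted p = 0.43). At Armc2 (chr10:41958150-41960432), Fed lists had 1713 to 2222 bp and Fast lists 998 to 1453 bp (-0.75 ± 0.18 SE, limma adjusted p = 0.45). This region held the start of a noncoding gene.

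**Figure D4:**
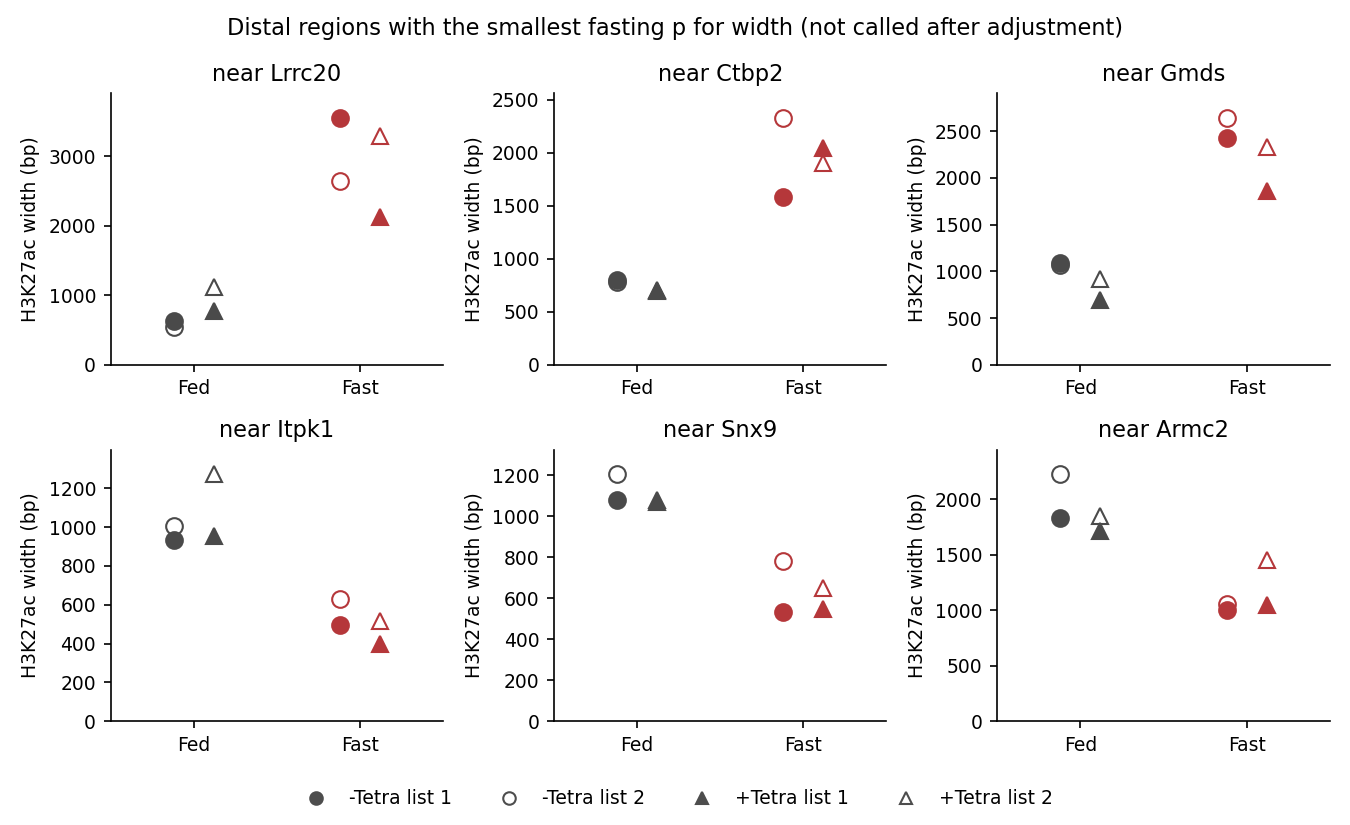
H3K27ac width in bp at the 6 distal regions with the smallest fasting p for width, 3 wider in Fast (top) and 3 narrower (bottom). Each point is 1 list (circles -Tetra, triangles +Tetra, filled list 1, open list 2), y axes start at 0 and differ between panels; Fed and Fast lists do not overlap in any panel, and none of the 6 was called after adjustment.

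The regions with the smallest tetracycline p for width lay nearest to Kalrn, Mrs2 and Mef2a (wider) and Psd2, Zmiz1 and Arntl (narrower), and none was called in limma (smallest adjusted p = 0.9997). At Kalrn (chr16:34046226-34048427), which encodes a guanine nucleotide exchange factor, -Tetra lists had 759 to 980 bp and +Tetra lists 1565 to 2120 bp (1.11 ± 0.17 SE on the log2 scale). At Arntl (chr7:113239114-113243468), which encodes the clock factor BMAL1, -Tetra lists had 3166 to 4029 bp and +Tetra lists 1111 to 2364 bp (-1.04 ± 0.24 SE). The region nearest to Zmiz1, a coregulator gene, lay between genes, 78.4 kb from its end (chr14:25377550-25379473). There, -Tetra lists had 1030 to 1790 bp and +Tetra lists 585 to 992 bp (-0.95 ± 0.21 SE). The region nearest to Mrs2, which encodes a mitochondrial magnesium channel, lay within another gene, Gpld1, 15.0 kb from an end of Mrs2. It had 420 to 619 bp in -Tetra and 764 to 840 bp in +Tetra lists. The regions nearest to Mef2a, a MADS box factor gene, and Psd2 lay between genes, 60.9 and 42.8 kb from these genes. That of Mef2a had 381 to 739 bp in -Tetra and 845 to 1040 bp in +Tetra. That of Psd2 had 1983 to 3114 bp in -Tetra and 866 to 1948 bp in +Tetra. In these 6 regions the -Tetra and +Tetra lists did not overlap in width.

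For score rank in fasting, 4 distal regions were called only when the mean score of a region's peaks was ranked instead of the highest. Their limma adjusted p was 0.048 each, against 0.054 to 0.057 with the highest score. The share of all regions called with the mean score is not given here. The 4 regions were named after their values were seen. The first lay in Mlxip (chr5:123414812-123418064), which encodes the glucose-responsive factor MondoA. Its score ranks were 16.1 and 26.9 in Fed (-Tetra), 95.5 and 91.4 in Fast (-Tetra), 12.4 or lower in both lists of Fed (+Tetra), and 71.8 and 91.2 in Fast (+Tetra). Its widths also did not overlap, with 790 to 1146 bp in Fed lists and 1344 to 3253 bp in Fast lists. The region in Zan (chr5:137418857-137421433) ranked from 7.8 to 37.0 in Fed lists and from 68.2 to 97.1 in Fast lists. That in Fam83b (chr9:76521463-76524316), a gene of growth factor signalling, ranked from 14.5 to 33.7 in Fed and 71.7 to 87.9 in Fast lists. The region nearest to Gm51999 (chr12:99417707-99420979), inside the forkhead gene Foxn3, ranked from 1.6 to 8.2 in Fed and 54.3 to 74.2 in Fast lists.

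The 10 distal regions with the highest median score rank (98.5 to 99.1) lay nearest to Arhgap5, Csnk1a1, Naif1, Ccdc12, Bicra, Tmem17, Tcp10c, Etl4, Tmtc2 and Tmem154. Their ranks include the authors' tied scores at the top of a list. The lowest rank in any list was 93.458 for 9 of them and 91.0 for Tmem17. The value 93.458 is the rank of the tied score 3100 in Fed (+Tetra) list 2. Only 1 of the 10, near Arhgap5, a GTPase activating protein gene, held a RefSeq start, that of the noncoding 1700031P21Rik shown above. There (chr12:52601703-52605676) widths were 3612 and 3721 bp in Fed (-Tetra), 3776 and 3765 bp in Fast (-Tetra), 3273 and 3584 bp in Fed (+Tetra), and 3869 and 3938 bp in Fast (+Tetra). Its fasting difference was 0.11 ± 0.15 (SE) on the log2 scale. The region near Csnk1a1, which encodes casein kinase 1 alpha of the beta-catenin destruction complex, had 2989 to 3776 bp. H3K9ac lists at the 10 regions ranged from 3 (Naif1 and Tmem154) to 8 (Arhgap5 and Tmem17). Fasting differences in width among the 10 ran from -0.07 at Naif1 to 0.42 at Tmem154, and none was called (limma).

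The 4693 regions lay nearest to 2536 genes of 21887. A single region was found for 1455 of these genes, and 530 genes had 3 or more. Of the genes nearest to a distal region, 56.4% had H3K27ac at a gene end in all 8 lists and 15.7% in none, beside 33.6% and 39.4% of all protein-coding genes. Of those with 3 or more regions, 64.2% had it in all 8 lists. These shares are given without a test, since neighbours share their chromatin. Shroom3, which encodes an actin-binding protein of apical constriction, had the most regions with 13. Trak1, Rreb1 and Plekha6 had 10 each and Usp12 had 9. The best-ranked region of Shroom3 (chr5:92879498-92882274) had a median rank of 97.0 and widths of 1134 to 2458 bp over the 8 lists.

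Regions less than 12.5 kb apart formed 829 clusters that held 2122 of the regions (45.2%), and 103 clusters had 4 or more. The largest lay within Plekha6, with 9 regions over 79.2 kb. Their median score ranks ran from 11.9 to 76.1, with H3K9ac in 1 to 6 lists, and the first and the last region had the highest ranks (76.1 and 73.8). Elovl6, which encodes a fatty acid elongase, held 8 regions over 42.7 kb with ranks of 25.6 to 92.3. One of these, 17.8 kb from the start of the first, ranked lowest, and the widest (4932 bp) ranked highest with H3K9ac in 2 lists. Osbpl3, an oxysterol-binding protein gene, held a cluster of 7 regions. Another 7 lay between genes, nearest to Chd2, a chromatin remodeller gene.

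**Figure D5:**
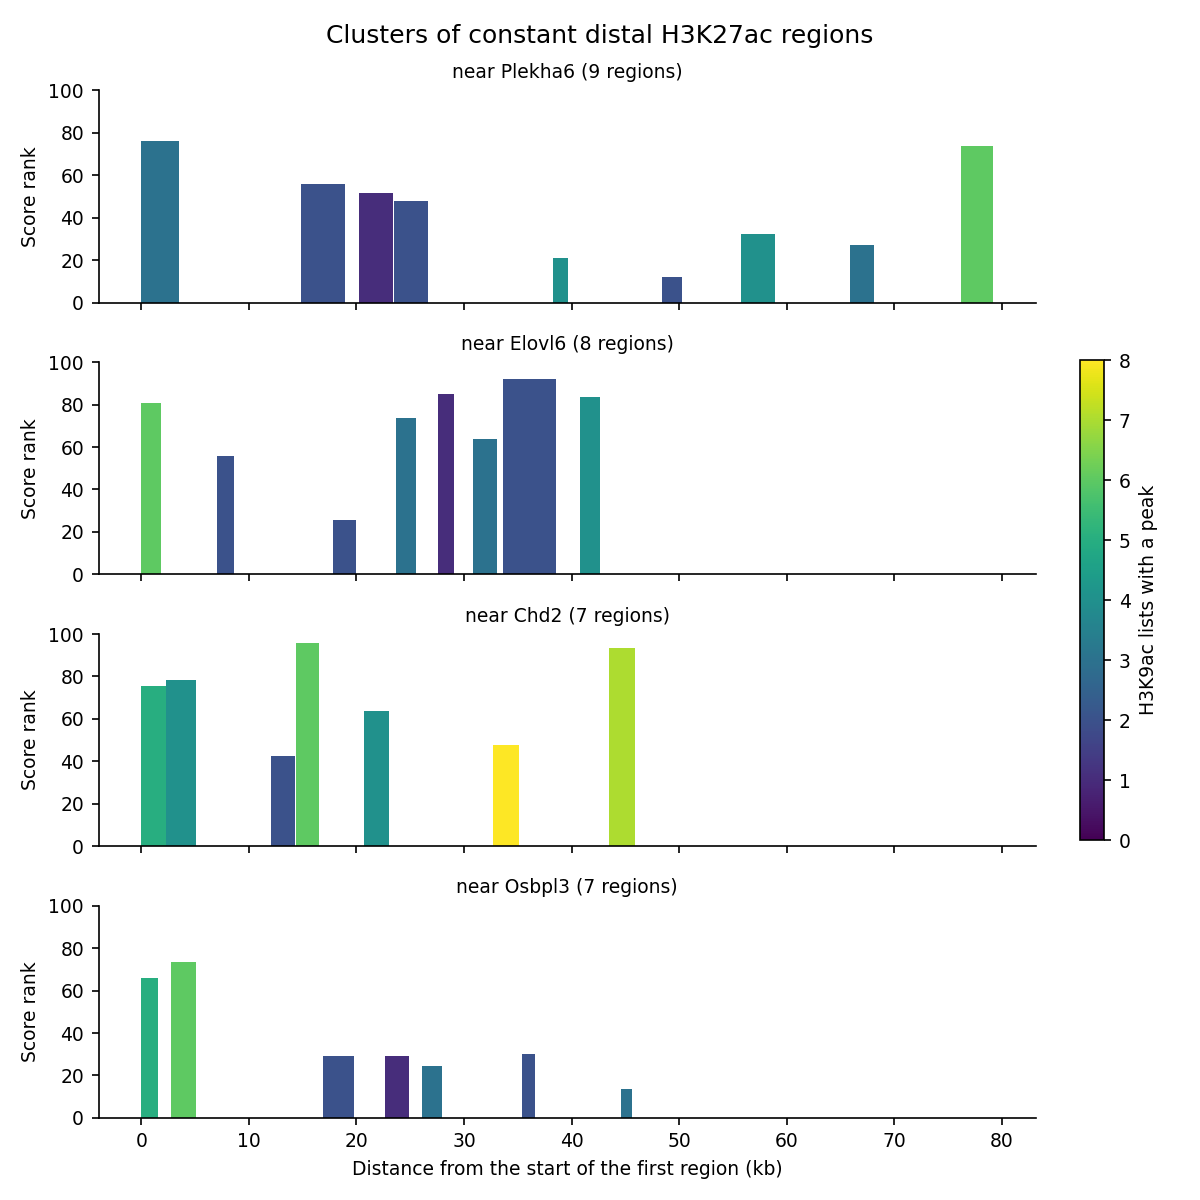
The 4 largest clusters of distal regions. Each bar is 1 region, drawn to scale in kb from the start of the first region, with its height the median score rank over the 8 H3K27ac lists and its colour the number of H3K9ac lists with a peak; in the Plekha6 cluster of 9 regions, ranks run from 11.9 to 76.1.

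Gene groups relevant to the tissue were read from lists of genes, by nearest gene. Of 60 intestinal transcription factors, 32 (53.3%, beside 11.6% of all protein-coding genes) had at least 1 distal region, with 89 regions in all. Rreb1 had 10, Tcf7l2, the nuclear effector of Wnt signalling, 7, Ets2 6, Klf6 and Hes1 5 each, and Vdr, the vitamin D receptor, 4. None of the 89 was called for fasting width. At an unadjusted p under 0.05, 12 were wider (13.5%) and 1 narrower (1.12%). These stand beside 8.20% and 1.09% of the distal regions and 6.67% and 0.83% of all regions. The median difference was 0.13 on the log2 scale (0.12 over the distal regions, 0.11 over all regions). The Tcf7l2 region of highest rank (chr19:55866735-55869593, rank 94.9) had 2351 and 2652 bp in Fed (-Tetra), 2036 and 2313 bp in Fast (-Tetra), 2515 and 2133 bp in Fed (+Tetra), and 1939 and 2500 bp in Fast (+Tetra). Fed and Fast lists overlapped. The best region of Ets2 (chr16:95681425-95683572, rank 97.9) had 1731 to 2088 bp in all 8 lists, and that of Vdr (chr15:97926099-97930485, rank 90.9) had 3404 to 4387 bp. At Klf6 (chr13:5840996-5842472, rank 89.2), Fed lists had 646 to 1152 bp and Fast lists 1153 to 1371 bp, a difference of 0.50 ± 0.23 (SE) that was not called (limma adjusted p = 0.68).

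Of 29 stem cell and Wnt genes matched, 12 (41.4%, beside 11.6% of all protein-coding genes) had 27 regions. There were 7 at Lrp5, a Wnt coreceptor, and 6 at Lrig1, an inhibitor of EGF receptors that marks stem cells. Rnf43, an E3 ligase that removes Wnt receptors, had 5 of the regions. None was called for fasting width. At an unadjusted p under 0.05, 2 were wider (7.41%) and 0 narrower. These stand beside 8.20% and 1.09% of the distal regions and 6.67% and 0.83% of all regions. The median difference was 0.22 on the log2 scale (0.12 over the distal regions, 0.11 over all regions). The best Lrp5 region (chr19:3630585-3634260, rank 96.2) ranged from 1108 to 3676 bp, and both extremes were Fast lists. The best Lrig1 region (chr6:94717318-94719718, rank 82.8) had 1273 to 1819 bp in Fed lists and 1886 to 2258 bp in Fast lists. Fed and Fast did not overlap there, but its difference of 0.37 ± 0.18 (SE) had an adjusted p of 0.69 (limma). The best Rnf43 region (chr11:87707898-87711289, rank 68.2) had 1182 to 3169 bp in Fed and 1075 to 3388 bp in Fast lists. Prom1, Rgmb and Fzd7 had 1 region each.

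Of 43 fasting and lipid oxidation genes, 20 (46.5%, beside 11.6% of all protein-coding genes) had 42 regions. None was called for fasting width. At an unadjusted p under 0.05, 4 were wider (9.52%) and 0 narrower. These stand beside 8.20% and 1.09% of the distal regions and 6.67% and 0.83% of all regions. The median difference was 0.15 on the log2 scale (0.12 over the distal regions, 0.11 over all regions). Ppargc1a, which encodes the coactivator PGC-1 alpha, had 5. Its best region (chr5:51390726-51392328, rank 85.5) had 971 to 1557 bp in Fed and 922 to 1362 bp in Fast lists, with no separation. Cpt1a, the carnitine palmitoyltransferase that admits fatty acids to mitochondria, had 3. At the best one (chr19:3332719-3336788, rank 47.8) widths were 948 and 3403 bp in Fed (-Tetra), 3464 and 4042 bp in Fast (-Tetra), 1956 and 3748 bp in Fed (+Tetra), and 2962 and 3763 bp in Fast (+Tetra). The lists 1 of the Fed samples were the narrow ones, and the difference of 0.68 ± 0.40 (SE) was not called (limma adjusted p = 0.75). Plin2, a lipid droplet coat protein gene (chr4:86689052-86692008, rank 51.9), had 699 and 2139 bp in Fed (-Tetra), 2638 and 2920 bp in Fast (-Tetra), 633 and 2174 bp in Fed (+Tetra), and 2362 and 2759 bp in Fast (+Tetra). Every Fast list was wider than every Fed list (1.15 ± 0.45 SE, limma adjusted p = 0.64). At Ppara, the fatty acid receptor (chr15:85773797-85777619, rank 94.6), Fed lists had 1330 to 3448 bp and Fast lists 2220 to 3533 bp. Per2, of the circadian clock, had 4 regions, and Nr3c1, the glucocorticoid receptor, had 3, of which the best (rank 89.4) had H3K9ac in all 8 lists and 2897 to 3706 bp.

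Of 33 microbe-responsive defence genes matched, 6 had 9 regions, which is 18.2% of the genes beside 11.6% of all protein-coding genes. None was called for fasting width, and 0 of the 9 had an unadjusted p under 0.05 for it. Beside these, 8.20% of the distal regions were wider and 1.09% narrower, and 6.67% and 0.83% of all regions. With only 9 regions, 0 is near these shares. The median fasting difference in log2 width was 0.072 (0.12 over the distal regions, 0.11 over all regions). Socs3, an inhibitor of cytokine signalling, Nfkbia, the NF-kappaB inhibitor, and Ifngr1, an interferon gamma receptor chain, had 2 each, and Irf8, Tnfaip3 and Stat3 had 1 each. At Nfkbia (chr12:55470542-55475423, rank 92.7), Fed lists had 2905 to 4138 bp and Fast lists 2800 to 4175 bp. At Socs3 (chr11:117933483-117935157, rank 93.1), Fed lists had 911 to 1217 bp and Fast lists 962 to 1607 bp. Widths at neither region separated Fed from Fast lists or -Tetra from +Tetra lists. Score ranks at Irf8, an interferon regulatory factor gene (chr8:120795132-120797028), were 60.2 to 84.9 in -Tetra and 17.8 to 71.3 in +Tetra lists, which overlapped (-35.6 ± 9.6 SE, limma adjusted p = 0.75). At Tnfaip3, which encodes the NF-kappaB inhibitor A20 (chr10:19098475-19100441), they were 57.2 to 79.9 in -Tetra and 16.5 to 69.9 in +Tetra lists (-37.8 ± 10.4 SE, limma adjusted p = 0.75). Among the best-ranked regions of the 6 genes, these 2 had the largest tetracycline differences in rank. The other differences were -4.47 points at Socs3, -2.31 at Nfkbia, -4.69 at Ifngr1 and 2.27 at Stat3.

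Of 36 epithelial structure and signalling genes, 20 (55.6%, beside 11.6% of all protein-coding genes) had 44 regions. There were 6 each at Ezr, the microvillus linker ezrin, and Cdh1, E-cadherin, and 4 each at Epcam and Tjp1. None was called for fasting width. At an unadjusted p under 0.05, 3 were wider (6.82%) and 0 narrower. These stand beside 8.20% and 1.09% of the distal regions and 6.67% and 0.83% of all regions. The median difference was 0.13 on the log2 scale (0.12 over the distal regions, 0.11 over all regions). At Epcam, an epithelial adhesion molecule (chr17:87564913-87569159, rank 95.7), Fed lists had 2918 to 3549 bp and Fast lists 2810 to 3997 bp. At Ezr (chr17:6826719-6829646, rank 96.4), widths ran from 2213 to 2920 bp and H3K9ac was in 7 lists. Ocln, the tight junction protein occludin (chr13:100531810-100534257, rank 86.7), had 1116 to 1713 bp in Fed and 1935 to 2448 bp in Fast lists (0.58 ± 0.20 SE, limma adjusted p = 0.56). Of 20 genes of other tissues and immune cells, 4 (20%, beside 11.6% of all protein-coding genes) had 1 region each. These were Acta2, Neurod1, Cdh5 and Itgam, with median ranks of 76.7, 67.0, 39.1 and 5.7. The name of this list does not exclude activity in the intestinal epithelium, as for Neurod1. The 4 regions are therefore not read as signal of another tissue. The 6 lists were chosen with earlier results known, and neighbouring regions of 1 gene share their chromatin, so the counts are descriptions.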

How the data were processed

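CUT&Tag peak lists for H3K27ac and H3K9ac in 8 samples (4 groups for each mark, 2 lists per sample, 16 lists) were used as deposited. The submitters' processing notes name FastQC, Bowtie, SAMtools and mm10. Peak names begin with MACS, per the file contents, and peaks were listed per library. The caller's version, cutoff and control are not given in the sources used here. The deposited score of each peak, from 50 to 3233.06, has no stated unit, and many peaks of a list share the score 3100. It was ranked within a list among the 15415 regions that all 8 H3K27ac lists share. The scale is unknown, so scores were not compared between lists.

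Peaks sharing at least 1 bp were merged. Width is the base pairs of a region that a list's peaks cover. Lists were compared by exact two-sided permutation (36 arrangements) or by sign flips over 8 lists, with 16 tests adjusted together. Single regions were tested with limma 3.58.1 in R 4.3.3 (4 residual degrees of freedom, 4.11 prior), with Benjamini-Hochberg adjustment over all 15415 regions. The scripts were tested on simulated widths, without the shifts that whole lists show. Of 100 regions with a planted fasting difference of 1 on the log2 scale, 40 were called, and 7 were called where none was planted. With a planted difference of 2, 85 of 100 were called. A lack of calls therefore does not show that widths were constant. Regions were named by the protein-coding gene with the nearest end: the 10 of highest median rank, the 3 per direction with the smallest p where none was called, up to 6 genes per list, the 5 genes with most regions, and those at each threshold. Members and lists were chosen with earlier results of these data known. Comparisons of regions with and without a RefSeq start, and the rank difference relative to gene-end regions, were added after the data were seen. Alternatives covered peak filters, merging, distance, H3K9ac support, scaling, score summary, a block and leaving out a list number.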

Additional observations from a re-analysis of the deposited data

How the results depend on the processing

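Of 184 alternatives to 21 results, 144 kept both list numbers, and 135 of these kept the direction and the side of the threshold. The Fast difference in H3K9ac share turned to -14.1 points with lists cut to an equal number of top peaks and to -3.48 points with peaks of at least 500 bp. The tetracycline difference in width was 0.0016 with the widest peak of a region. Distal regions ranked 4.10 points above gene-end regions with lists cut to equal length, and the fasting width difference relative to gene-end regions was -0.0033 with gaps of 500 bp bridged. The rank difference of start-holding regions was 0.71 with lists cut to equal length and 3.24 with peaks of at least 500 bp. For fasting, 1 distal region was called with centred widths and 4 with the mean score, and the shares of all regions are not given here. The cause of these changes was not tested.

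Without list 1 or without list 2 of every sample, the H3K9ac share differed by -12.2 to 18.1 points for fasting and by -4.75 to 15.3 for tetracycline. The interaction ran from -0.18 to 0.011 for width and from -1.21 to 0.50 for rank. Distal regions minus gene-end regions gave -304.5 to -248 bp, -9.73 to 0.45 in rank, and -44.4 to -37.0 points of H3K9ac. The fasting width difference relative to gene ends ran from -0.012 to 0.015. Start-holding minus other distal regions gave 307.6 to 399 bp, 4.95 to 9.93 in rank and 25.3 to 26.8 points of H3K9ac. With 4 lists these sign-flip tests cannot pass the threshold. The interaction of single regions could not be fitted, since no residual degrees of freedom were left.

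List numbers did not meet the criterion for pairing (every correlation over 0.1), though deviations of same-numbered lists were all positively correlated, at 0.081 to 0.19 for width and 0.027 to 0.21 for rank over 6 pairs of groups, with 4 and 3 above 0.1. A block on list number left the fasting width difference at 0.13 (exact permutation p = 0.25) and the rank difference at 2.92 points (exact permutation p = 0.125). It called 0 distal regions for width. At an unadjusted p under 0.05 it gave 679 wider and 114 narrower distal regions, against 385 and 51 without it. The shares of all regions under the block are not given here, so this rise is not read as particular to the distal regions. With no read totals, whether a peak missed in a list reflects depth cannot be told.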
